A study of Mus musculus with 8 samples.

Results

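The levels of 49 interferon-stimulated genes and interferon regulatory factors were compared between control mouse uteri and uteri that had lost most of their Nr2f2 transcript. Nr2f2 encodes an orphan nuclear receptor of the uterine stroma. The genes were chosen by symbol, and all 49 were found among the 24963 genes of the expression table. They fall into 26 effectors and 3 RNA sensors that are targets of type I interferon, 8 interferon regulatory factors (Irf) with Stat2, 8 guanylate-binding proteins (Gbp) and 3 immunity-related GTPases (Irg). RNA came from the whole uterus on gestation day 3.5 (GD3.5) of C57B6/J females that the labels give as 8 weeks old at mating and that had mated with vasectomized males, so that no embryo was present. The 4 control mice (Nr2f2 f/f, labelled WT) carried floxed Nr2f2 alleles without Cre. The 4 mutant mice (Nr2f2 d/d, labelled KO) carried the same floxed alleles and a Cre knocked into 1 Pgr allele, which removes Nr2f2 from cells that express the progesterone receptor. The mutants therefore also carry Cre and 1 disrupted Pgr allele that the controls lack, and effects of these and of Nr2f2 loss cannot be told apart here. Values are FPKM, fragment counts scaled to the length of the gene and to the total of the library, with 1 library per mouse and 61050000 to 92450000 fragments per library.

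Nr2f2 itself was at 25.3, 21.8, 25.7 and 23.5 FPKM in Nr2f2 f/f replicates 1 to 4 and at 9.66, 9.42, 6.90 and 9.74 FPKM in Nr2f2 d/d replicates 1 to 4. The ratio of the mutant to the control mean was 0.371, and the groups did not overlap (log2 fold change of -1.39, SE 0.12, adjusted p = 0.00549 from limma). Markers of uterine stroma, epithelium and smooth muscle were detected in every library, with summed levels of 804 to 1644, 447 to 711 and 846 to 2091 FPKM. Across all genes, Nr2f2 f/f replicate 2 and Nr2f2 d/d replicate 3 stood apart, with the highest value of the 8 libraries in 24.1% and 19.2% of the 14323 genes tested, against 6.93% to 12.5% in the other libraries.

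Interferons are secreted proteins that bind receptors on the cell surface and activate the kinases Jak1, Jak2 and Tyk2. Type I and type III interferons act through a complex with Stat2 and Irf9 that binds the interferon-stimulated response element (ISRE), whereas interferon gamma acts on genes through the gamma-activated sequence (GAS). The first route induces mainly antiviral effectors and RNA sensors, and the second favours Irf1, the Gbp and Irg GTPases and the proteins that prepare peptides for antigen presentation, although many genes answer to both. In the uterus, interferon epsilon is made by the epithelium without infection, under the control of ovarian hormones, and interferon gamma comes mainly from natural killer cells and T cells.

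Promoters were read from RefSeq (GRCm38.p6) for 35 of the 49 genes, from 250 bases before to 50 bases after the start of transcription. Both strands were searched for GAAA and GAAA with any 2 bases between them, the core of an ISRE, and for TTCNNNGAA, the core of a GAS. The ISRE letters were in 19 of the 35 promoters (54.3%), against 3.99% of the 27025 genes with a promoter. The GAS letters were in 11 (31.4%), against 9.55%. By group, the ISRE letters were in 9 of 18 effectors, 2 of 2 RNA sensors, 2 of 9 genes of the Irf and Stat2 group, 4 of 4 Gbp genes and 2 of 2 Irg genes. The GAS letters were in 5 of 18 effectors, 0 of 2 RNA sensors, 3 of 9, 2 of 4 and 1 of 2. The gene lists were written from general knowledge of interferon targets, with earlier results of these data known, so these shares describe the lists and test nothing. Mx1, Zbp1 and Gbp8 had no promoter in this table, nor had Rtp4, Mx2, Gbp4, Gbp6, Gbp9, Dhx58, Ifi27, Oas2, Parp14, Usp18 and Iigp1.

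The 160 bases before the start are shown for 5 genes that the results below refer to, 5′ to 3′ on the strand of the gene, with the bases that match either set of letters in capitals. Bst2 is shown as the effector that passed the test, Isg15 and Ifit3 as effectors that varied between mice, Igtp for the Irg family and Irf1 for the regulators.
Bst2 (chr8:71537473-71537632, minus strand): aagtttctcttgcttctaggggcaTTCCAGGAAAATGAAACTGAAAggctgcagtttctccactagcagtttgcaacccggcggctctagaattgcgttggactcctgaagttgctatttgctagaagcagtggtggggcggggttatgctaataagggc
Isg15 (chr4:156200819-156200978, minus strand): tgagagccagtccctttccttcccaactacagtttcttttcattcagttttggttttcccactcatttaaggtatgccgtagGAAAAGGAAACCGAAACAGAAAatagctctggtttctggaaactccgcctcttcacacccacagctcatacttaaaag
Ifit3 (chr19:34583369-34583528, plus strand): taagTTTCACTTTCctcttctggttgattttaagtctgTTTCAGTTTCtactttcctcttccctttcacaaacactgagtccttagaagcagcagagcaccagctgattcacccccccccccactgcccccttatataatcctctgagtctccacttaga
Igtp (chr11:58199396-58199555, plus strand): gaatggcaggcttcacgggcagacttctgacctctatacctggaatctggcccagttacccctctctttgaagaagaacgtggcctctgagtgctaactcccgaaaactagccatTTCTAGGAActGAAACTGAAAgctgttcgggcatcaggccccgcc
Irf1 (chr11:53769854-53770013, plus strand): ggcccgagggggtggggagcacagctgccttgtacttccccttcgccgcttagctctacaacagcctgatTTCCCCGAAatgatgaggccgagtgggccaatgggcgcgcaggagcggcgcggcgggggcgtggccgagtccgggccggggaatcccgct
In the Bst2 stretch, matches to the ISRE letters began at positions -130 and -124 from the start and overlapped each other, and the first overlapped a match to the GAS letters that began at -136. Isg15 had 3 overlapping ISRE matches, at -78, -72 and -66. Ifit3 had 2 on the opposite strand, at -156 and -122. Igtp had an ISRE match at -34 and a GAS match at -45, without overlap, and Irf1 had 1 GAS match at -90 and no ISRE match. None of the 5 stretches overlapped an annotated exon (GENCODE vM21).

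The levels of 48 of the 49 genes were compared by genotype with limma on log2(FPKM + 0.5), among the 14323 genes that averaged 0.5 FPKM or more. Irf4, with 0.343 ± 0.169 FPKM in controls and 0.505 ± 0.197 FPKM in mutants (SD, n = 4 each), was below this level and was not tested. At an adjusted p under 0.05, 2 of the 48 rose, Bst2 and Gbp8, and none fell. Over all genes tested, 2.62% passed this threshold, 1.09% higher and 1.53% lower. None of the 48 was lower even at an unadjusted p under 0.05, where 7 were higher and where 12.5% of all genes tested were lower and 8.66% higher. At the threshold of the study's own methods, an unadjusted p under 0.05 with a fold change of at least 1.4, 4 genes passed, all higher in Nr2f2 d/d (8.33%): Bst2, Gbp8, Mx1 and Zbp1. Over all genes tested, 8.8% passed, 4.7% higher and 4.1% lower. Between the groups, 4 genes did not overlap, all higher in Nr2f2 d/d, Bst2, Gbp8, Mx1 and Irf1, against 15.4% of all genes in either direction, 5.49% higher and 9.91% lower. The sign of the fold change was positive for 34 of the 48 genes (70.8%), against 46.7% of all genes, and the median log2 fold change was 0.119, against -0.019 over all genes.

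That median depended on single mice. It was -0.048 without Nr2f2 d/d replicate 1 and 0.008 without Nr2f2 f/f replicate 4, and the 8 values with 1 library left out ran from -0.048 to 0.200. The count at an adjusted p under 0.05 was 0 without Nr2f2 f/f replicate 1 or 4 or without Nr2f2 d/d replicate 1 or 2, and the count at the study's threshold was 9 without Nr2f2 d/d replicate 4.

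**Figure D1:**
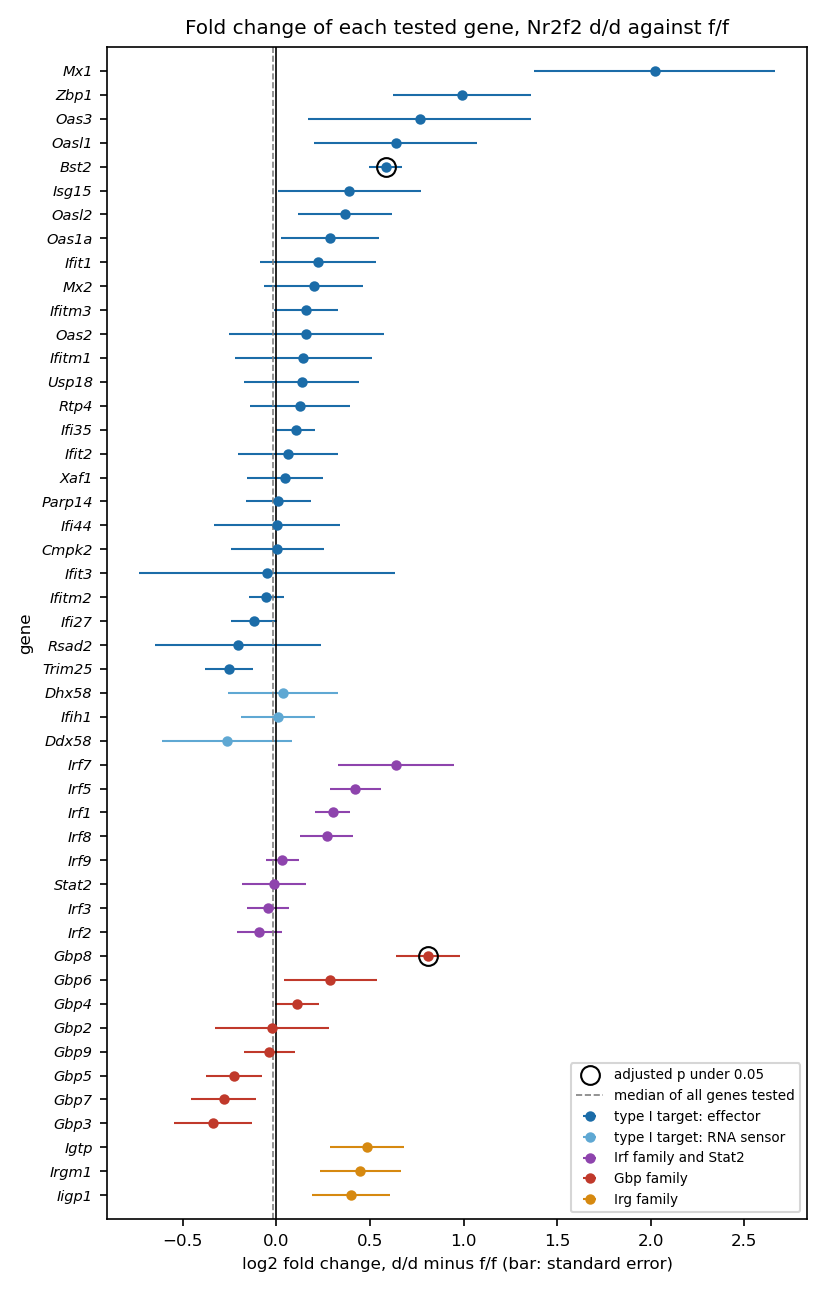
Log2 fold change (x axis, Nr2f2 d/d minus Nr2f2 f/f, on log2(FPKM + 0.5)) of the 48 tested genes (y axis), coloured by group, with the standard error as a bar, 4 libraries in each group. Bst2 and Gbp8, circled, passed an adjusted p of 0.05, Mx1 had the largest fold change at 2.02 with a wide error, and the dashed line marks the median of all genes tested at -0.019.

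Of the 26 effectors, 21 had a positive and 5 a negative fold change, with a median of 0.14. Bst2, tetherin, which holds budding virus particles at the cell surface (chr8:71534255-71537456, mm10, minus strand), was at 144, 163, 166 and 157 FPKM in Nr2f2 f/f replicates 1 to 4 and at 253, 215, 255 and 224 FPKM in Nr2f2 d/d replicates 1 to 4. Every mutant library was above every control library, and within each group the values lay close together. Mean levels were 157 ± 9.84 and 236 ± 20.2 FPKM (SD, n = 4 each). The log2 fold change was 0.58 (SE 0.09, adjusted p = 0.0203 from limma), and with 1 library left out it ran from 0.54 to 0.63 with adjusted p-values from 0.0313 to 0.0685. With quantile normalization Bst2 passed neither threshold (0.44, adjusted p = 0.0761). The exact permutation test gave p = 0.0286, the smallest that 4 against 4 libraries allow.

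Mx1, a GTPase that blocks influenza virus where the gene is intact (chr16:97447035-97462907, minus strand), was at 2.33, 1.74, 1.66 and 1.17 FPKM in Nr2f2 f/f and at 11.9, 4.74, 30.6 and 2.55 FPKM in Nr2f2 d/d. The groups did not overlap, but the mutant values ran from 2.55 to 30.6 FPKM and the lowest of them lay just above the highest control. The log2 fold change of 2.02 (SE 0.64) did not pass the adjusted threshold (adjusted p = 0.133 from limma) and ran from 1.42, without Nr2f2 d/d replicate 3, to 2.53. Zbp1, a sensor of left-handed nucleic acids that can start necroptosis (chr2:173206612-173218923, minus strand), was at 12.4, 4.80, 7.06 and 4.76 FPKM in Nr2f2 f/f and at 24.0, 9.13, 15.4 and 10.8 FPKM in Nr2f2 d/d. The lowest pair of mutant values lay below Nr2f2 f/f replicate 1, so the groups overlapped. Its log2 fold change was 0.99 (SE 0.37, adjusted p = 0.182 from limma), and it passed the study's threshold in 4 of the 8 fits that left out 1 library, but not without Nr2f2 f/f replicate 2 or 4 or Nr2f2 d/d replicate 1 or 3.

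**Figure D2:**
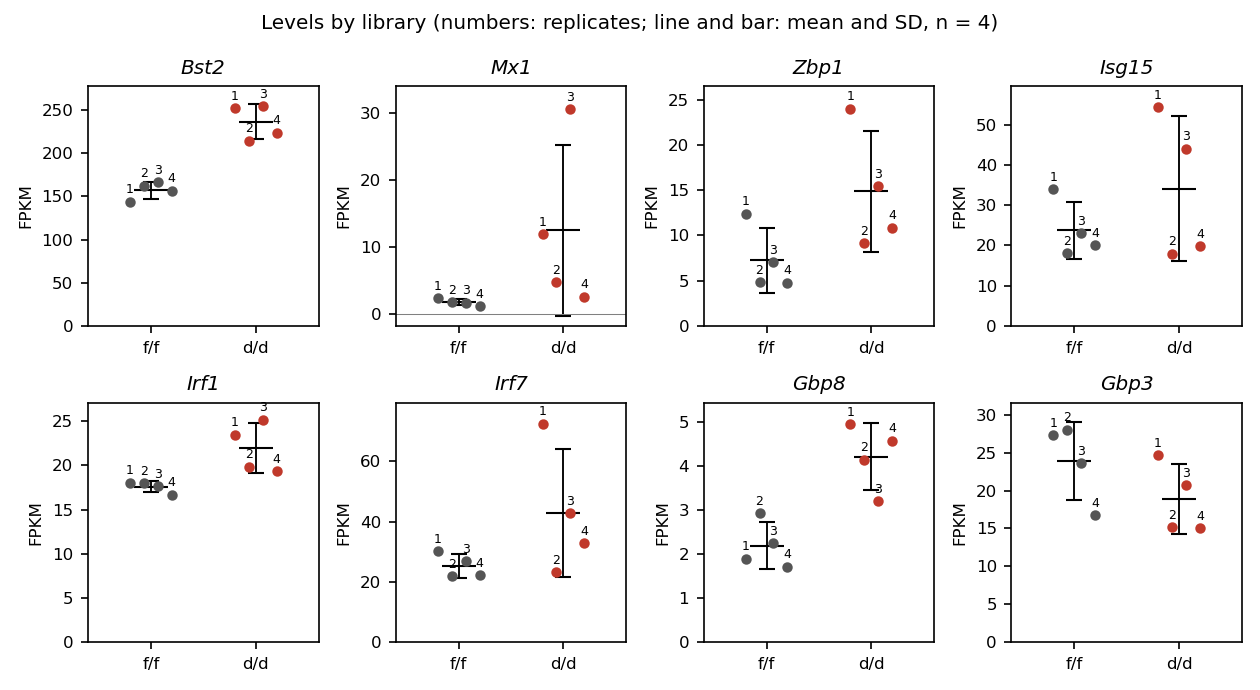
FPKM (y axis, linear, with 0 shown) of 8 genes in the 4 Nr2f2 f/f and 4 Nr2f2 d/d libraries, where each point is 1 mouse with its replicate number and the line and bar are the mean and SD. Bst2, Irf1, Mx1 and Gbp8 did not overlap between groups, whereas for Isg15 and Irf7 replicates 1 and 3 lay at the top of the Nr2f2 d/d group.

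The other 23 effectors did not pass the study's threshold, and their log2 fold changes ran from -0.25 for Trim25, a ubiquitin ligase that activates the RNA sensor RIG-I, to 0.77 for Oas3, which makes the messenger that switches on RNase L. The value of Oas3 was 0.35 when Nr2f2 d/d replicate 1 was dropped. Their levels covered a wide range. The membrane proteins Ifitm3, Ifitm2 and Ifitm1, which block the entry of enveloped viruses, were the highest, with control means of 768, 363 and 195 FPKM and mutant means of 869, 348 and 211 FPKM, and their fold changes were no larger than their standard errors (0.16 with SE 0.17, -0.05 with SE 0.09 and 0.15 with SE 0.37). Oas3, Oasl1 and Mx2 were among the lowest, with control means of 2.46, 2.76 and 3.38 FPKM. Isg15, a ubiquitin-like protein that is attached to other proteins after interferon, is shown for its promoter and was at 34.0, 18.1, 23.1 and 20.02 FPKM in Nr2f2 f/f and at 54.3, 18.0, 44.1 and 19.8 FPKM in Nr2f2 d/d. Replicates 1 and 3 of the mutants lay above all controls and replicates 2 and 4 lay below at least 3 of the 4 controls, with a log2 fold change of 0.39 (SE 0.38, adjusted p = 0.592 from limma). Ifit3, which binds foreign RNA with its partner Ifit1, was at 4.19, 34.7, 5.67 and 3.72 FPKM in Nr2f2 f/f and at 13.3, 4.37, 9.45 and 5.13 FPKM in Nr2f2 d/d. Nr2f2 f/f replicate 2 alone was above all mutants. The log2 fold change of Ifit3 was -0.05 with that library and 0.66 without it, and neither passed the test. The pair Ifit3 and Ifit3b are near-identical copies, as are Oas1a and Oas1g, and how their shared fragments were counted is not stated.

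None of the 3 cytoplasmic sensors of viral RNA passed either threshold. Ddx58, which encodes RIG-I, was at 39.6, 15.8, 28.3 and 36.8 FPKM in Nr2f2 f/f and at 25.1, 27.9, 13.5 and 32.9 FPKM in Nr2f2 d/d. Its lowest value in each group came from the library that stood apart across all genes, Nr2f2 f/f replicate 2 and Nr2f2 d/d replicate 3. Ifih1, which encodes MDA5, was at 5.42, 5.83, 4.64 and 3.99 FPKM and at 7.23, 3.65, 5.25 and 4.30 FPKM. Dhx58, which encodes the regulator LGP2, was at 10.4, 7.47, 6.75 and 5.47 FPKM and at 12.0, 4.59, 9.30 and 6.17 FPKM. The log2 fold changes were -0.26 for Ddx58, 0.01 for Ifih1 and 0.04 for Dhx58, with standard errors of 0.35, 0.20 and 0.29 (adjusted p = 0.700, 0.986 and 0.959 from limma), and none passed at an unadjusted p under 0.05. With 1 library left out, Ifih1 ran from -0.16 to 0.14 and Dhx58 from -0.18 to 0.26, so that their sign changed, and Ddx58 ran from -0.54 to 0.00.

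The 29 type I targets varied together between mice of the same genotype. Nr2f2 d/d replicate 1 held the highest value of all 8 libraries for 20 of the 29 genes, and it was above every control for 23 (79.3%, against 23.0% of all genes tested). Nr2f2 d/d replicate 3 was above every control for 11 (37.9%, against 27.5%), and replicates 2 and 4 for 2 genes each (6.9%, against 23.6% and 19.6%). Relative to the control mean on the log2 scale, the median gene was at 0.67 and 0.30 in Nr2f2 d/d replicates 1 and 3 and at -0.20 and -0.24 in replicates 2 and 4. The controls differed in the same manner. Their medians were 0.24, 0.05, -0.08 and -0.29 in replicates 1 to 4, and Nr2f2 f/f replicate 4 was below the other 3 controls for 19 of the 29 genes (65.5%, against 21.1% of all genes tested). The 23 positive and 6 negative fold changes of the 29 genes had a median of 0.126, which was -0.059 without Nr2f2 d/d replicate 1 and -0.005 without Nr2f2 f/f replicate 4.

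After the group means were removed, the median correlation between pairs of the 29 type I targets was 0.576, over 406 pairs and 8 libraries. It was 0.53 for the Gbp genes, 0.668 for the 3 Irg genes, 0.209 for the Irf genes with Stat2, and 0.01 over pairs of all genes tested. These values describe pairs that share the same 8 libraries and their depth.

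**Figure D3:**
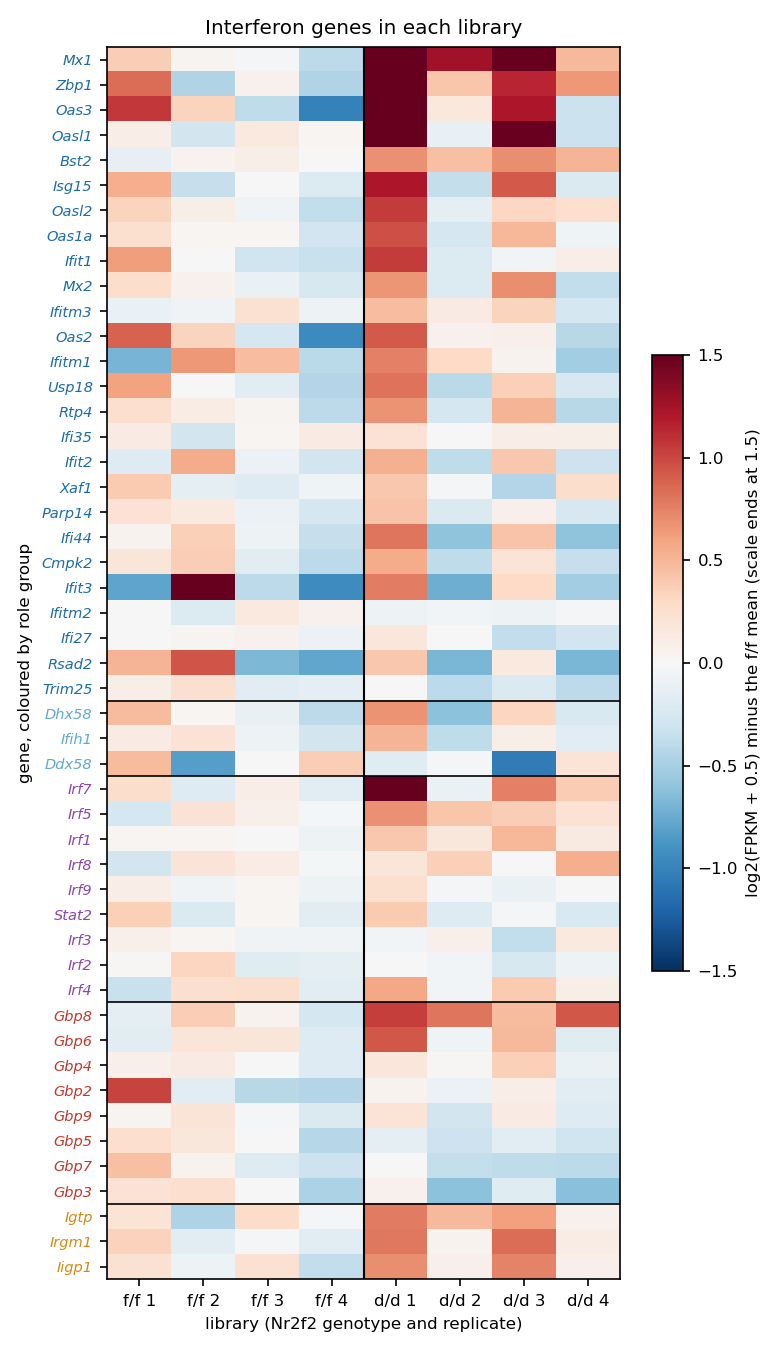
Log2(FPKM + 0.5) minus the mean of the Nr2f2 f/f libraries, as colour (red above, blue below, with the scale ending at 1.5), for the 49 genes (rows, by group) in the 8 libraries (columns). The column of Nr2f2 d/d replicate 1 is red for most type I targets, replicate 3 for fewer, and replicates 2 and 4 are mostly pale or blue in the same rows.

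Of the Irf genes and Stat2, none of the 8 tested passed either threshold and 2 were higher at an unadjusted p under 0.05, Irf1 and Irf5. In sign 5 were higher and 3 lower in Nr2f2 d/d, and the median log2 fold change was 0.151. Irf1, which carries the interferon gamma signal to many of its targets (chr11:53770014-53778374, plus strand), was at 18.0, 18.0, 17.7 and 16.7 FPKM in Nr2f2 f/f and at 23.5, 19.9, 25.2 and 19.3 FPKM in Nr2f2 d/d. The control libraries lay close together and every mutant was above them. The log2 fold change of 0.30 (SE 0.09, adjusted p = 0.126 from limma) is under the fold of 1.4, and the exact permutation test gave the smallest p it allows, 0.0286. Irf5, a mediator of Toll-like receptor signals in myeloid cells and B cells, was at 2.83, 4.17, 3.71 and 3.43 FPKM in Nr2f2 f/f and at 5.94, 4.86, 4.69 and 4.14 FPKM in Nr2f2 d/d. A single mutant value lay inside the control range (log2 fold change of 0.42, SE 0.14, adjusted p = 0.135 from limma), and 14.1% of its exonic bases overlap Tnpo3.

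Irf7, the factor that amplifies the type I response and is itself an interferon target (chr7:141262706-141266481, minus strand), was at 30.3, 21.9, 26.9 and 22.2 FPKM in Nr2f2 f/f and at 72.4, 23.4, 42.9 and 32.8 FPKM in Nr2f2 d/d. Its order within the mutants began, like that of the type I targets, with replicates 1 and 3. The log2 fold change was 0.64 (SE 0.31, adjusted p = 0.283 from limma). Irf8, a factor of macrophages, dendritic cells and B cells, had a log2 fold change of 0.27 (SE 0.14, adjusted p = 0.319 from limma). The subunits of the complex that binds the ISRE, Irf9 and Stat2, had close means in both groups, with control means of 29.0 and 18.9 FPKM, mutant means of 29.7 and 18.8 FPKM, and log2 fold changes of 0.03 (SE 0.09) and -0.01 (SE 0.17). Irf3, which starts interferon transcription after viral sensing, and Irf2, an antagonist of Irf1, had log2 fold changes of -0.05 (SE 0.11) and -0.09 (SE 0.12). With 1 library left out, Irf5 passed the fold of 1.4 and the unadjusted p when Nr2f2 f/f replicate 2 was dropped, or Nr2f2 d/d replicate 4 (log2 fold change up to 0.50) and Irf7 without Nr2f2 d/d replicate 2 (0.88). The lowest values were 0.33 for Irf5 and, without Nr2f2 d/d replicate 1, 0.35 for Irf7.

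The Gbp genes encode large GTPases that coat vacuoles with pathogens, and those measured here lie in a cluster on each of 2 chromosomes. The 4 on chromosome 3 (Gbp5, Gbp7, Gbp3 and Gbp2, from 142493978 to 142638008) all had a negative fold change, with a median of -0.253, and none passed a threshold. Of the 4 on chromosome 5 (Gbp8, Gbp9, Gbp4 and Gbp6, from 105014150 to 105293698), 3 had a positive and 1 a negative fold change, with a median of 0.2. The difference between the clusters was not tested. Gbp8 was the only Gbp gene that passed. It was at 1.90, 2.92, 2.25 and 1.72 FPKM in Nr2f2 f/f and at 4.94, 4.15, 3.20 and 4.58 FPKM in Nr2f2 d/d. Each mutant value was above each control value, with means of 2.20 ± 0.532 and 4.22 ± 0.753 FPKM (SD, n = 4 each). Gbp8 rose by a log2 fold change of 0.81 (SE 0.17, adjusted p = 0.0495 from limma), on the edge of the threshold, and with 1 library left out the adjusted p ran from 0.0338 to 0.139. It passed without Nr2f2 f/f replicate 2 or Nr2f2 d/d replicate 3 and lost its call without any of the other libraries. It also lost it, with an adjusted p just above 0.05, with 1 added before the log2, with the filter at an average of 1 FPKM and with robust eBayes, and with no filter (0.0747). Gbp8 was high in Nr2f2 d/d replicates 2 and 4 as well as 1, and replicate 3 was its lowest mutant.

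Gbp3 was at 27.3, 28.0, 23.6 and 16.8 FPKM in Nr2f2 f/f and at 24.6, 15.2, 20.7 and 15.1 FPKM in Nr2f2 d/d (log2 fold change of -0.34, SE 0.21, adjusted p = 0.387 from limma). Gbp7 was at 14.0, 10.6, 8.76 and 8.09 FPKM and at 10.2, 7.79, 7.69 and 7.61 FPKM (log2 fold change of -0.28, SE 0.17, adjusted p = 0.386 from limma). In both, the groups overlapped and Nr2f2 f/f replicate 4 was the lowest control, as it was for 8 of the 8 Gbp genes. Without that library Gbp3 passed the study's threshold as lower in Nr2f2 d/d (log2 fold change of -0.49). Gbp5, which helps inflammasomes assemble, had a log2 fold change of -0.23 (SE 0.15). Gbp2, which acts with the Irg GTPases at the vacuole, had a fold change near 0 (-0.02, SE 0.30), with 47.6 FPKM in Nr2f2 f/f replicate 1 and 17.0 to 20.6 FPKM in the other controls. With 1 library left out it ran from -0.17 to 0.32 and was positive without Nr2f2 f/f replicate 1 (0.32) or Nr2f2 d/d replicate 2 or 4, so that the fold changes on chromosome 3 were then not all negative. Gbp4, Gbp6 and Gbp9 had log2 fold changes of 0.11, 0.29 and -0.04. The neighbours Gbp2b, Gbp10 and Gbp11 were under 0.5 FPKM in every library and were not tested. Gbp2b was at 0.000 to 0.036 FPKM in Nr2f2 f/f and at 0.096 to 0.348 FPKM in Nr2f2 d/d, without overlap. The Gbp genes are near-identical in parts, 29.0% of the exonic bases of Gbp6 overlap Gm43302, and the spans of Gbp8, Gbp9 and Gbp4 overlap on the same strand, so fragments may have been assigned to the wrong copy.

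The 3 Irg GTPases, which attack the membrane around intracellular parasites, all had a positive fold change and none passed either threshold, with 1, Igtp, at an unadjusted p under 0.05. Igtp (chr11:58199556-58207591, plus strand), a regulatory member of the family, was at 22.0, 13.8, 23.2 and 18.9 FPKM in Nr2f2 f/f and at 33.2, 26.9, 29.5 and 19.9 FPKM in Nr2f2 d/d. A single mutant, replicate 4, lay inside the control range (log2 fold change of 0.48, SE 0.20, adjusted p = 0.215 from limma), just under the fold of 1.4. Irgm1, a second regulatory member, was at 35.5, 24.6, 27.3 and 24.9 FPKM and at 48.4, 28.8, 50.1 and 29.9 FPKM (log2 fold change of 0.45, SE 0.22, adjusted p = 0.278 from limma). Iigp1, an effector of the family, was at 18.0, 14.4, 17.9 and 11.6 FPKM and at 25.1, 16.1, 25.8 and 16.1 FPKM (log2 fold change of 0.40, SE 0.21, adjusted p = 0.310 from limma). With 1 library left out, Igtp passed the study's threshold when Nr2f2 f/f replicate 1 or 3 was dropped, or Nr2f2 d/d replicate 4, Irgm1 without Nr2f2 f/f replicate 1 or Nr2f2 d/d replicate 2 or 4, and Iigp1 without Nr2f2 d/d replicate 4, with log2 fold changes of up to 0.62, 0.58 and 0.51. Their lowest values were 0.33, 0.32 and 0.27. Igtp also passed with 0.1 added before the log2 and with median-ratio scaling. All 3 genes were above every control in Nr2f2 d/d replicates 1 and 3. The median gene was at 0.78 and 0.74 on the log2 scale relative to the control mean in these libraries, and at 0.08 and 0.07 in replicates 2 and 4.

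The rest of the pathway was followed with 92 other genes, of which 69 were tested. They had 52 positive and 17 negative fold changes with a median of 0.127, and 8 passed the study's threshold, all higher in Nr2f2 d/d (11.6%, against 8.8% of all genes tested in either direction and 4.7% higher). At an adjusted p under 0.05, 1 of the 69 passed, Psmb9, where 2.62% of all genes did. The groups did not overlap for 11 genes (15.9%, near the 15.4% of all genes tested). Of these, 10 were higher in Nr2f2 d/d (Ifne, Socs1, Psmb8, Psmb9, Psmb10, Tap1, Cxcl9, Cxcl10, Ticam1 and Oas1c), a direction taken by 5.49% of all genes, and 1 was lower, against 9.91%. The lower gene was Pias1, an inhibitor of interferon signalling, at 9.38, 9.60, 8.26 and 8.88 FPKM in Nr2f2 f/f and at 8.16, 7.26, 7.02 and 7.86 FPKM in Nr2f2 d/d (log2 fold change of -0.24, SE 0.08, adjusted p = 0.141 from limma, named after its values were seen).

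Of 20 interferon genes, only Ifne and Ifng reached the level for a test. Ifne, interferon epsilon (a gene of a single exon), was at 1.07, 1.39, 1.76 and 0.734 FPKM in Nr2f2 f/f and at 4.58, 2.34, 4.27 and 1.92 FPKM in Nr2f2 d/d. The groups did not overlap. Replicates 1 and 3 were the highest mutants, as for the type I targets. Among the controls, Ifne was highest in replicate 3, whereas the type I targets had their highest median in replicate 1. The means were 1.24 ± 0.438 and 3.28 ± 1.34 FPKM (SD, n = 4 each), a ratio of 2.65. The log2 fold change was 1.08 (SE 0.29, adjusted p = 0.0858 from limma), which passed the study's threshold with any 1 library left out but not the adjusted threshold. Ifng, interferon gamma, was at 0.235, 0.322, 0.392 and 0.390 FPKM in Nr2f2 f/f and at 0.468, 0.961, 0.348 and 1.05 FPKM in Nr2f2 d/d (log2 fold change of 0.49, SE 0.21, adjusted p = 0.238 from limma). Its high mutants were replicates 2 and 4, not 1 and 3. Ifng lay at the edge of the study's threshold, with an unadjusted p = 0.0505 from limma. It passed with 0.1 added before the log2, with no filter, with median-ratio scaling, with robust eBayes or eBayes without trend, and without Nr2f2 d/d replicate 1 (0.58) or 3 (0.64). With 1 library left out its log2 fold change ran from 0.35 to 0.64. Ifnb1, interferon beta, had 0 fragments in 7 libraries and about 2 in Nr2f2 d/d replicate 4, and 3 fragments are worth 0.0655 FPKM in the smallest library. Of 13 genes of the Ifna type, 10 were at 0 in all 8 libraries, and the highest value of any was 0.048 FPKM. These floors cover counting error only.

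The 6 receptor subunits did not pass a threshold, nor an unadjusted p under 0.05. Ifnar1 and Ifnar2, which bind type I interferons, had log2 fold changes of -0.23 (SE 0.14) and -0.15 (SE 0.08), with adjusted p = 0.374 and 0.338 from limma. Ifngr1 and Ifngr2, which bind interferon gamma, had log2 fold changes of 0.03 each (SE 0.12 and 0.08). Socs1, the feedback inhibitor of the Jak kinases, passed the study's threshold and did not overlap between groups, at 8.603, 5.35, 9.60 and 8.83 FPKM in Nr2f2 f/f and 12.0, 11.3, 18.7 and 9.92 FPKM in Nr2f2 d/d (log2 fold change of 0.64, SE 0.23, adjusted p = 0.172 from limma). Without Nr2f2 f/f replicate 2 or Nr2f2 d/d replicate 3 Socs1 did not pass, with a lowest log2 fold change of 0.46. Socs3, a related inhibitor named after its values were seen, was at 23.1, 4.58, 16.6 and 15.9 FPKM in Nr2f2 f/f and 11.4, 10.5, 13.1 and 11.5 FPKM in Nr2f2 d/d. Its log2 fold change was -0.16 (SE 0.42, adjusted p = 0.859 from limma), and it passed the study's threshold as lower in Nr2f2 d/d (-0.63) when Nr2f2 f/f replicate 2 was dropped.

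**Figure D4:**
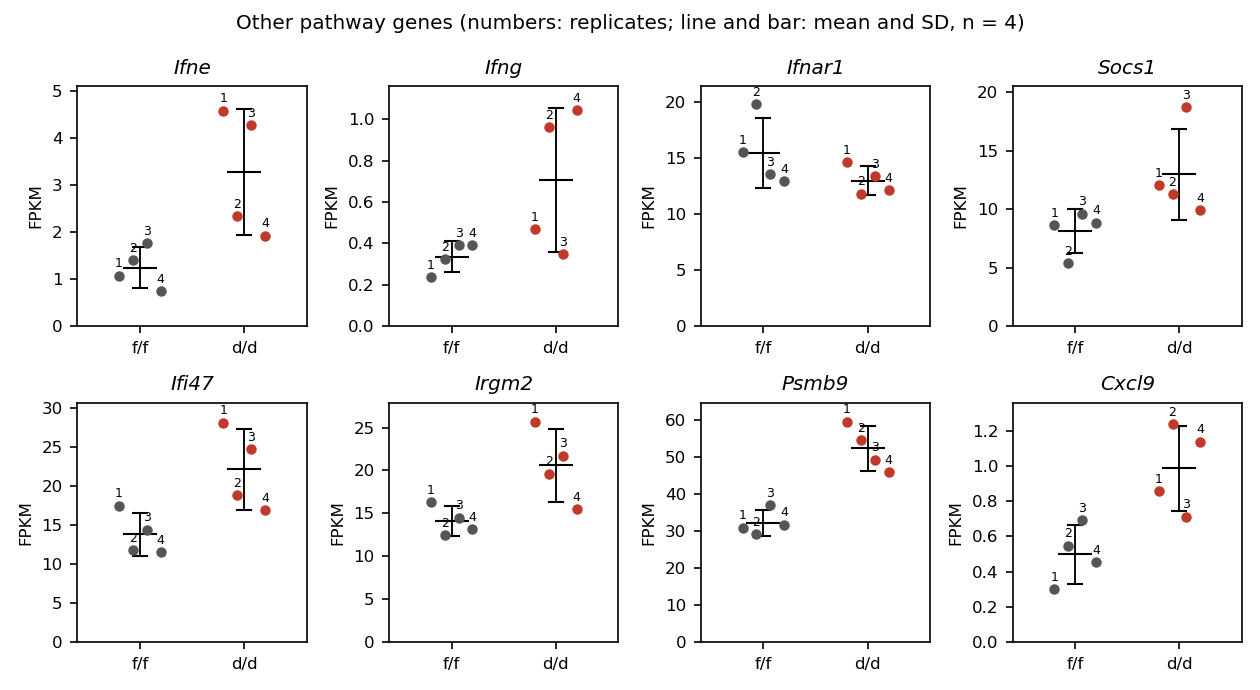
FPKM (y axis, linear, with 0 shown) of 8 other genes of the pathway in the 4 Nr2f2 f/f and 4 Nr2f2 d/d libraries, where each point is 1 mouse with its replicate number and the line and bar are the mean and SD. Ifne, Socs1, Psmb9 and Cxcl9 did not overlap between groups, Ifng was highest in Nr2f2 d/d replicates 2 and 4, and the groups overlapped for Ifnar1.

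Relatives of the Irg GTPases gave 3 of the 8 genes that passed the study's threshold. Ifi47 was at 17.5, 11.9, 14.5 and 11.6 FPKM in Nr2f2 f/f and at 28.2, 18.8, 24.8 and 17.0 FPKM in Nr2f2 d/d (log2 fold change of 0.65, SE 0.19, adjusted p = 0.107 from limma). Irgm2 was at 16.3, 12.5, 14.5 and 13.1 FPKM and at 25.7, 19.6, 21.7 and 15.5 FPKM (log2 fold change of 0.52, SE 0.15, adjusted p = 0.114 from limma). Tgtp2 was at 3.28, 2.58, 2.51 and 1.74 FPKM and at 8.23, 4.17, 6.43 and 2.58 FPKM (log2 fold change of 0.87, SE 0.32, adjusted p = 0.178 from limma). In each of the 3, Nr2f2 d/d replicate 4 lay inside the control range and the other mutants lay above it. Irgm2 missed that threshold when the fit lacked Nr2f2 f/f replicate 2 or 4 or Nr2f2 d/d replicate 1 or 3 (lowest log2 fold change 0.40), and Tgtp2 without Nr2f2 f/f replicate 4 or Nr2f2 d/d replicate 1 or 3 (lowest 0.64), whereas Ifi47 passed in all 8 fits. Irgm2 shares exonic bases with Igtp, and Tgtp2 is nearly identical to Tgtp1.

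The remaining genes that passed act in antigen presentation and the attraction of T cells. Psmb9, a catalytic subunit of the immunoproteasome, was at 31.0, 29.1, 37.0 and 31.7 FPKM in Nr2f2 f/f and at 59.5, 54.5, 49.3 and 45.8 FPKM in Nr2f2 d/d. It rose with a log2 fold change of 0.69 (SE 0.11, adjusted p = 0.0216 from limma), and the groups did not overlap. Without Nr2f2 f/f replicate 1 or 4 or Nr2f2 d/d replicate 1 or 2 the adjusted p lay above 0.05, and over the 8 fits it ran from 0.0249 to 0.0807. Psmb8, a second catalytic subunit, was at 55.0, 41.0, 55.0 and 49.9 FPKM in Nr2f2 f/f and at 88.1, 66.9, 69.3 and 65.9 FPKM in Nr2f2 d/d (log2 fold change of 0.53, SE 0.13, adjusted p = 0.0726 from limma). Cxcl9, a chemokine that attracts T cells, was low in both groups, at 0.300, 0.548, 0.693 and 0.453 FPKM and at 0.858, 1.24, 0.713 and 1.14 FPKM, without overlap (log2 fold change of 0.57, SE 0.17, adjusted p = 0.110 from limma). The study's threshold was missed by Psmb8 without Nr2f2 f/f replicate 2 or Nr2f2 d/d replicate 1 (lowest log2 fold change 0.43) and by Cxcl9 without Nr2f2 f/f replicate 1 (0.47). Psmb8 also missed it with quantile normalization (0.46) and Cxcl9 with 1 added before the log2 (0.40), and with the filter at an average of 1 FPKM Cxcl9 was not tested. For these 3 genes, as for Bst2 and Mx1 among the 29 type I targets, all 4 mutants lay above all controls.

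Fewer cells of a type and less RNA per cell cannot be told apart in whole tissue, and several marker lists of cell types moved with genotype. Of the 10 markers of T cells and NK cells, the 8 tested were all higher in Nr2f2 d/d, 5 of them past the study's threshold, with summed levels of 66.8 to 88.0 FPKM in Nr2f2 f/f and 103.5 to 401 FPKM in Nr2f2 d/d. Gzmb also passed the adjusted threshold (adjusted p = 0.0328 from limma). Without the granzymes Gzma and Gzmb the other 8 summed to 35.3 to 53.7 FPKM and 29.7 to 120.6 FPKM, with overlap. The rise was not confined to the granzymes. Cd3e and Cd3g passed the study's threshold as higher, without overlap and with any single library left out. Prf1 also passed it as higher, with overlap between groups. Cd3e, Cd3g and Prf1 did not pass the adjusted threshold. The NK cell genes Ncr1, Klrb1c and Nkg7 overlapped between groups and passed neither threshold (adjusted p = 0.691, 0.8288 and 0.661 from limma). Gzma, a granzyme of these cells, was highest in Nr2f2 d/d replicate 4 (149.6 FPKM) and lowest in replicate 3 (22.4 FPKM), an order nearer to that of Ifng than to that of the type I targets. The 5 endothelial markers were all lower in Nr2f2 d/d past the study's threshold, 4 of them (Pecam1, Cdh5, Kdr and Emcn) also at an adjusted p under 0.05, with sums of 158 to 218.5 FPKM and 92.8 to 115 FPKM. The 8 macrophage markers, 7 higher and 1 lower with none past a threshold, summed to 141 to 245 FPKM and 175.5 to 271 FPKM. Of the 6 markers of B and plasma cells, the 2 tested, Jchain and Cd79b, passed the study's threshold and were higher, Cd79b also at an adjusted p of 0.0398 from limma. The 6 summed to 6.19 to 25.5 FPKM and 31.4 to 107.5 FPKM, whereas Ms4a1 and Pax5 were under 0.1 FPKM in every library. Jchain, the joining chain of secreted antibodies, was at 104, 29.4, 88.5 and 69.3 FPKM in Nr2f2 d/d replicates 1 to 4, with replicates 1 and 3 the highest, as for the type I targets. In Nr2f2 f/f Jchain was at 5.14, 13.4, 24.2 and 12.2 FPKM. It was lowest in replicate 1, the control with the highest median of the type I targets. Of the 4 markers of plasmacytoid dendritic cells, which carry Bst2 and Irf7 and secrete type I interferon, only Ly6d was tested and it passed no threshold, and the 4 summed to 0.817 to 3.02 FPKM and 1.79 to 5.604 FPKM, with Siglech at 0.543 FPKM or below in every library. Of the 5 markers of other dendritic cells, 2 were higher and 3 lower. Cd209a passed the study's threshold as lower (log2 fold change of -0.72), Zbtb46 was lower without overlap (ratio of means 0.818), and the 5 summed to 8.399 to 16.7 FPKM and 5.88 to 13.98 FPKM. Neutrophil markers did not move one way. S100a8 and S100a9, abundant proteins of these cells that epithelium can also make, passed the study's threshold as higher, whereas Retnlg passed it as lower (ratio of means 0.225), and the 6 markers summed to 3.35 to 21.1 FPKM and 18.5 to 40.7 FPKM. S100a8 was at 16.02, 7.76, 17.1 and 8.45 FPKM in Nr2f2 d/d replicates 1 to 4, again with replicates 1 and 3 the highest. In Nr2f2 f/f S100a8 was at 0.969, 0.953, 5.37 and 3.86 FPKM, highest in replicate 3. How many of all genes share this order of the mutants was not counted. Among 6 epithelial markers, 5 were higher, Krt8 and Krt19 past the study's threshold and Krt8 also at an adjusted p of 0.00829 from limma, with sums of 447 to 495 FPKM and 607 to 711 FPKM. All 3 mesothelial markers were higher, Upk3b and Msln past the study's threshold and Msln also at an adjusted p of 0.0398 from limma, with sums of 24.9 to 45.0 FPKM and 48.2 to 62.5 FPKM. Of the 6 stromal markers, Col1a1 passed the study's threshold as higher (ratio of means 3.48) and Hand2 and Vim as lower (0.614 and 0.625), Hand2 also at an adjusted p of 0.0388 from limma. The part of these cell types in the levels of the interferon genes was not tested.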

How the data were processed

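RNA of whole uterus at GD3.5 was extracted with TRIzol from 4 Nr2f2 f/f and 4 Nr2f2 d/d mice, and 76-bp paired-end libraries were made with TruSeq v2. Per the labels and the study's methods, the authors trimmed reads with cutadapt 1.12, aligned them to mm10 with STAR 2.5.2b and counted fragments per gene with featureCounts 1.5.0-p1 of Subread. Cufflinks 2.0.2 is also listed, in a role that is not given. They deposited FPKM, and the annotation, strand setting and FPKM formula are not given in the sources used here. FPKM are relative to a library's total, so abundant genes can shift others. Groups came from the sample labels, and the 8 columns were matched by name.

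Log2(FPKM + 0.5) was used, a scale on which changes of low genes come out too small. Tests covered the 14323 genes averaging 0.5 FPKM or more and used limma 3.58.1 in R 4.3.3 (eBayes with trend, two-sided, no covariate), adjusted by Benjamini-Hochberg over all of them. The study's own test, DESeq2 on counts, was not run because FPKM are not counts. Its threshold (unadjusted p under 0.05, fold change 1.4 or more) was read from the limma fit. Single genes had a two-sided exact permutation test over 70 arrangements. Tables were made with Python 3.11.15.

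Depth was recovered from short genes of 1 exon, of which 97.8% to 99.1% gave whole fragments (within 0.1) at 1 library total, against medians of 8.8% to 11.6% at other totals. Positions and exon overlaps came from GENCODE vM21, and promoters from RefSeq. In simulated data for the 14323 genes of this comparison, the test recovered 96 of 100 genes changed 4-fold and 65 of 100 changed 2-fold, with 10 false calls among 171. The changed genes were drawn at random from all of these, and each gene varied independently.

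The genes and lists were chosen with earlier results of these data known. Among the 49 genes, values per library are given for those that pass either threshold, those whose groups do not overlap and the 3 smallest p-values in each group, and among the other pathway genes for those that pass either threshold and for Ifne and Ifng. Isg15, Ifit3, Pias1, Socs3, Psmb10, Tap1, Tap2, and the genes Irf8, Irf9, Stat2, Irf3, Irf2, Trim25, Oas3, Oasl1, Mx2, the Ifitm genes, Gbp2, Gbp2b, Gbp4, Gbp5, Gbp6 and Gbp9 with their fold changes or levels, are named outside this rule and were chosen after their values were seen. Alternatives were other added values (0.1 and 1), no filter or a filter at an average of 1 FPKM, quantile normalization or scaling by median ratios, robust eBayes or eBayes without trend, the replicate number as a block, and each library left out. Nothing states whether the mice of a group shared a litter or cage.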

Additional observations from a re-analysis of the deposited data

Results flagged for a closer look

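In 132 groups of 4 libraries, 1 gene and genotype each, the highest or lowest library was set against the rest with Dixon's test. A library stood far from the other 3 in 9 of the 132 groups, a share close to the 1 in 20 or so that chance gives. Nr2f2 f/f replicate 2 was high for Ifit3 (34.7 FPKM, others 3.72 to 5.67), for its near-identical copy Ifit3b (18.2 FPKM, others 0.977 to 1.43) and for their neighbour Ifit1bl1 (5.76 FPKM, others 0.096 to 0.286), all on chromosome 19. Nr2f2 d/d replicate 1 was high for Ifit1 (23.9 FPKM, others 9.73 to 12.1), Gbp7 (10.2 FPKM, others 7.61 to 7.79) and Psmb8 (88.1 FPKM, others 65.9 to 69.3). Gbp2 was high in Nr2f2 f/f replicate 1 (47.6 FPKM, others 17.0 to 20.6), and Ifitm3 in Nr2f2 f/f replicate 3 (899 FPKM, others 714 to 735). Nr2f2 was lowest in Nr2f2 d/d replicate 3 (6.90 FPKM, others 9.42 to 9.74).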

How the results depend on the processing

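The count of genes at an adjusted p under 0.05 was 2 and depended on the settings. It was 1, Bst2, with 1 added before the log2, with no filter, with the filter at an average of 1 FPKM and with robust eBayes, and 1, Gbp8, with quantile normalization. It ran from 0 to 2 with 1 library left out: 0 without Nr2f2 f/f replicate 1 or 4 or Nr2f2 d/d replicate 1 or 2, and 1, Bst2, without Nr2f2 f/f replicate 3 or Nr2f2 d/d replicate 4. The count at the study's threshold was 4, 3 to 6 under the other settings, and 3 to 9 with 1 library left out, 9 without Nr2f2 d/d replicate 4. The 8 other pathway genes at that threshold stayed between 6 and 12. The members' median of 0.119 ran from 0.079 to 0.147 under other settings and from -0.048 to 0.200 with 1 library left out. Ifih1 (-0.158 to 0.141), Dhx58 (-0.175 to 0.255), Ifit3 (-0.362 to 0.658) and Gbp2 (-0.168 to 0.318, and 0.007 with median-ratio scaling) were among 21 of the 48 genes that changed sign with 1 library left out, all with a fold under 1.4 when all 8 libraries were used. Ddx58, counted among them, ran from -0.538 to 0.000, and Socs3, a gene outside the 48, from -0.633 to 0.105. The medians of the type I targets (-0.059 and -0.005) and of the Gbp genes (0.057, 0.023 and 0.02) also changed sign in some of these fits. Replicate numbers did not pair the mice: same-numbered deviations correlated at -0.204, -0.172, 0.045 and -0.040, with 0 of 8 libraries closest to their own number, and the numbers inside the labels, which differ from those of the titles, gave -0.204, 0.149 and -0.040. With either set as a replicate block, 0 members passed the adjusted threshold and 6 the study's (Bst2, Gbp8, Mx1, Zbp1 and Oas3 with both, Irf7 with the title numbers, Irf5 with the label numbers). Of the other pathway genes, the same 8 passed with the title numbers, whereas with the label numbers Socs1, Irgm2 and Psmb8 did not pass and Ifng and Socs3 did. In these block fits 1 and 0 of all genes passed the adjusted threshold, and the log2 fold change was -0.051 for Dhx58 and 0.543 for Ifit3 with the label numbers. The causes of these changes were not tested. Of the other values, 58 that answer a comparison and 530 for single genes or family medians stayed on their side of the adjusted threshold, within 1.5 times for a count or within the SD between replicates for a median, and 25 for Bst2, Gbp8 or Psmb9 lost the adjusted call. This rule is loose for the medians. The SD was 0.282 for the members' median of 0.119 and 0.358 for the type I targets' median of 0.126. Fits of -0.048 and -0.059, with the sign reversed, are therefore counted as having stayed. Single genes far from the threshold had little room to cross it. With 4 mice per group, 65 of 100 genes simulated at 2-fold in this comparison were recovered.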

Other observations

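Ddx58 and Myd88 were set side by side after their values were seen. Myd88, an adaptor of Toll-like receptors, was at 81.8, 21.5, 121 and 190.2 FPKM in Nr2f2 f/f replicates 1 to 4 and at 106, 163, 28.7 and 211 FPKM in Nr2f2 d/d replicates 1 to 4. As in Ddx58, Nr2f2 f/f replicate 2 and Nr2f2 d/d replicate 3 were the lowest of their groups, and these are the libraries that stood apart across all genes. Neither gene passed a threshold between the genotypes (adjusted p = 0.843 for Myd88 and 0.700 for Ddx58 from limma).

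Genes for antigen processing next to those described above also separated the genotypes without overlap, and were likewise named after their values were seen. Psmb10, the remaining catalytic subunit of the immunoproteasome, was at 22.5 to 30.1 FPKM in Nr2f2 f/f and at 33.9 to 38.5 FPKM in Nr2f2 d/d (log2 fold change of 0.44, SE 0.10, adjusted p = 0.0538 from limma). Tap1, a subunit of the transporter that carries peptides into the endoplasmic reticulum, was at 19.8 to 25.5 FPKM and at 25.9 to 37.5 FPKM (log2 fold change of 0.46, SE 0.13, adjusted p = 0.0998 from limma). Its partner Tap2 had a log2 fold change of 0.05 (SE 0.06, adjusted p = 0.697 from limma), and the groups overlapped. Trex1, a DNA exonuclease, was listed at 0 in all 8 libraries, and all of its exonic bases overlap Atrip.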
